A study of Mus musculus with 6 samples.

Results

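The Dlk1-Dio3 locus is an imprinted stretch of mouse chromosome 12 that holds the genes Dlk1, Meg3, Rtl1, Rian, Mirg and Dio3. All probe sets that the array annotation gives to 1 of these 6 genes were taken. There were 19 of them among 45037 tested, 2 for Dlk1, 11 for Meg3, 4 for Rian and 2 for Mirg, so that 4 of the 6 genes were measured. No probe set is listed for the remaining genes, Rtl1 and Dio3, and they are not analysed here. RNA came from the microdissected arcuate hypothalamus of mice aged 2 weeks, 3 POMCDicerKO samples and 3 control samples, and was hybridised to Affymetrix Mouse Genome 430 2.0 arrays. POMCDicerKO mice lack the microRNA-processing enzyme Dicer in cells that express Pomc, the precursor gene of the melanocortin peptides, and the labels give the controls only as Ctrl. Both groups were on a mixed C57Bl/6J, FVB/N and 129 background. The sources used here give neither the promoter that drove the deletion, nor the alleles of the controls, nor whether a sample was 1 animal or a pool. The series' design text calls the samples independent, and the p-values measure only the spread between them.

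Imprinting at this locus silences 1 parental copy of each gene. Dlk1, Rtl1 and Dio3 encode proteins and are expressed from the paternal chromosome, while Meg3, Rian and Mirg are long noncoding RNAs expressed from the maternal chromosome, all in the same direction of transcription. The maternal transcripts carry microRNA hairpins and small nucleolar RNAs, and Dicer cuts the hairpins into mature microRNAs after Drosha has cut them from the host. The locus is known for high expression in the brain. Array probe sets read the RNA of both parental copies together, so the values below say nothing of imprinting itself.

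The RefSeq table (GRCm38.p6) places 114 mature microRNA sequences of 61 microRNA genes between Dlk1 and Dio3, 6.56% of the 1738 mature sequences it holds for the mouse. Within the spans of the RefSeq gene models lie 3 in Meg3, 29 in Rtl1, 6 in Rian and 19 in Mirg. A further 55 lie between the end of Rian and the start of Mirg, and 2 lie beyond Mirg. The sequences below show, for each stretch of the locus, examples of the mature microRNAs made from it. Capitals mark the seed, bases 2 to 8, which pairs with target RNAs, and positions are on GRCm38.p6. The first lies in Meg3. The next 2 lie opposite Rtl1, and miR-127 is known to be antisense to the Rtl1 coding sequence. The last 2 lie in Rian.
miR-770-5p, chr12:109563710-109563731, plus strand: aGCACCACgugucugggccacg
miR-127-3p, chr12:109592888-109592909, plus strand: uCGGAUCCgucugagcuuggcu
miR-136-5p, chr12:109595331-109595352, plus strand: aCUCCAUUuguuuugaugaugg
miR-341-3p, chr12:109611556-109611576, plus strand: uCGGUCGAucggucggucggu
miR-370-3p, chr12:109618305-109618326, plus strand: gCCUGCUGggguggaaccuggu

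The densest run of hairpins begins at miR-379 and ends inside Mirg. It includes miR-134, which is known from rat hippocampal neurons as a repressor of Limk1. Of 104 distinct seeds in the locus, 9 are shared by more than 1 of its microRNAs. The sequences that follow are miR-134 and then pairs with a common seed, which shows which members of the run could bind the same target sites.
miR-134-5p, chr12:109734145-109734166, plus strand: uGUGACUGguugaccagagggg
miR-379-5p, chr12:109709065-109709085, plus strand: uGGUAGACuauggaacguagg
miR-1193-5p, chr12:109715716-109715735, plus strand: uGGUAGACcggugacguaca
miR-379-3p, chr12:109709102-109709123, plus strand: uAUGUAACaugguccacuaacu
miR-411-3p, chr12:109710225-109710246, plus strand: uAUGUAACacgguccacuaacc
miR-494-5p, chr12:109715334-109715355, plus strand: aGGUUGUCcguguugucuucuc
miR-410-5p, chr12:109743729-109743749, plus strand: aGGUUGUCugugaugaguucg
The pair of miR-494-5p and miR-410-5p joins the stretch between Rian and Mirg with Mirg itself. Mature microRNAs were not measured on these arrays. Of the host genes, Meg3, Rian and Mirg had probe sets, and their spans hold 3, 6 and 19 of the mature sequences. No gene between Rian and Mirg, where 55 lie, had a probe set of its own. Rtl1, whose span holds 29 by position, had none either. In that span, Mir127 shares the 2-symbol probe set 1453446_at with the noncoding RNA 6430411K18Rik, and its values are given below.

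No difference in a measured transcript of the locus was detectable between POMCDicerKO and control tissue with 3 arrays each. By limma with Benjamini-Hochberg adjustment over all probe sets, 0 of the 19 probe sets passed an adjusted p of 0.05 (adjusted p = 1 for each), against 0% (0 of 45037) of all probe sets, and 0 of 19 had an unadjusted p under 0.05, against 2.44% of all. The groups did not overlap at 1 of the 19, against 6.36% of all. Log2 fold changes, POMCDicerKO minus control, ran from -0.023 to 0.22 with a median of 0.076, where the median of all probe sets was 0.001. On average 15 of the 19 lay above control and 4 below, against 50.6% above control among all probe sets, but the 11 Meg3 probe sets read 1 gene on the same arrays and are not separate evidence. The count above control was 18 without control 1 and 12 without control 2. The 95% intervals of the 19 ran from -0.62 at the lowest end to 0.70 at the highest, so a change of more than 1.62-fold upward or 1.53-fold downward lay outside every interval. The number of arrays limits this precision. The intervals hold for the whole dissected tissue, and a change confined to the cells that express Pomc was not measured separately. In such bulk tissue, fewer cells of a type and less RNA per cell cannot be told apart.

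**Figure D1:**
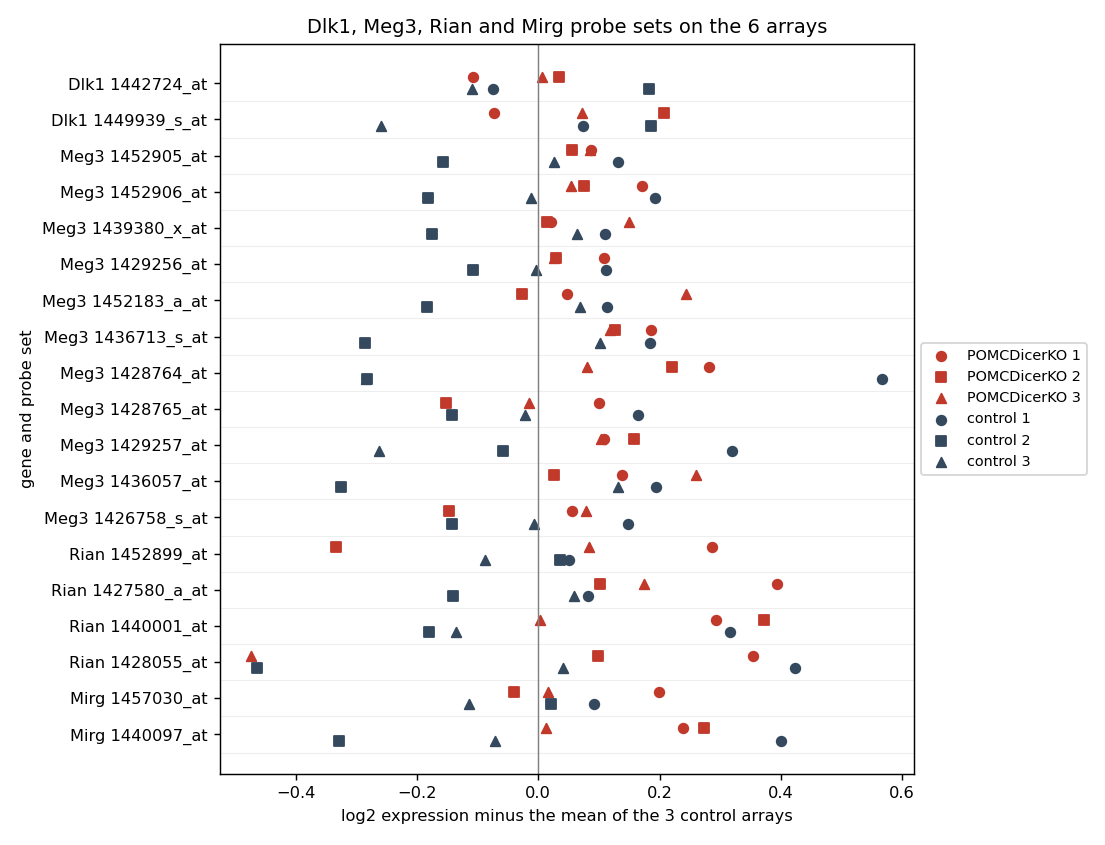
Each row is a probe set of Dlk1, Meg3, Rian or Mirg, and each point is 1 array, as its log2 expression minus the mean of the 3 control arrays (red, POMCDicerKO; dark, control; the marker shape gives the replicate number). The groups overlap in every row but Rian 1427580_a_at, and control 1 (dark circle) is the highest control at all 17 probe sets of Meg3, Rian and Mirg.

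Meg3, a long noncoding RNA also known as Gtl2 and studied as a growth suppressor, was measured by 11 probe sets. At the probe set with the highest mean, 1452905_at, the POMCDicerKO arrays read 13.57, 13.54 and 13.57 and the control arrays 13.61, 13.32 and 13.51 on the log2 scale. The POMCDicerKO values lay within the control range. The log2 fold change was 0.076 (standard error, SE, 0.084), and its 95% interval was -0.12 to 0.27, that is between 1.09-fold lower and 1.21-fold higher (two-sided exact permutation p = 0.6, n = 3 each). The largest Meg3 difference was at 1428764_at, with 11.89, 11.83 and 11.69 in POMCDicerKO against 12.18, 11.33 and 11.33 in controls. Here control 1 was the highest array of all 6, and the log2 fold change was 0.19 (SE 0.22). It was 0.48 without control 1 and 0.052 without control 2.

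Across the 11 Meg3 probe sets, 9 lay above and 2 below control on average, with a median of 0.088. The range was -0.022 at 1428765_at to 0.19 at 1428764_at, and none of the groups separated. The smallest unadjusted p was 0.268, at 1436713_s_at, where POMCDicerKO averaged 12.18 ± 0.036 and controls 12.04 ± 0.25 (SD, n = 3 each, limma). The controls were more spread out than the POMCDicerKO arrays. As the mean deviation of the 11 probe sets from the control mean, Meg3 was at 0.118, 0.035 and 0.108 in POMCDicerKO and at 0.203, -0.185 and -0.018 in controls. The SD between arrays was 0.046 in POMCDicerKO and 0.195 in controls, and whether the spreads differed was not tested. Control 1 was the highest control at all 11 probe sets and control 2 the lowest control at 9.

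**Figure D2:**
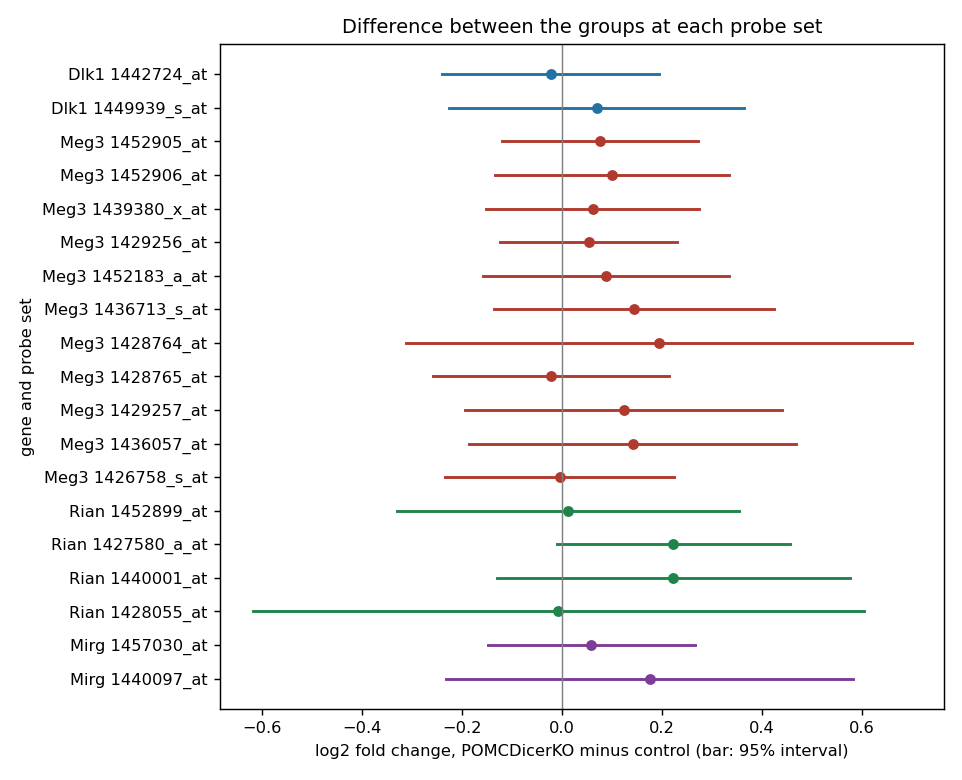
Points are log2 fold changes, POMCDicerKO minus control, at the 19 probe sets, and bars are limma's 95% intervals (3 arrays per group). Every bar crosses 0, Rian 1427580_a_at by the smallest margin at -0.009.

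Rian, also called Meg8, is a maternal noncoding RNA that hosts small nucleolar RNAs and the miR-341 and miR-370 hairpins. It had the probe set nearest to a difference. At 1427580_a_at the POMCDicerKO arrays read 10.36, 10.07 and 10.14, against 10.05, 9.83 and 10.03 in controls, so that every POMCDicerKO array lay above every control array. The gap was 0.019 between the lowest POMCDicerKO and the highest control value. The log2 fold change was 0.22 (SE 0.10), and its 95% interval was -0.009 to 0.455 (unadjusted p = 0.058 and adjusted p = 1 by limma). The two-sided exact permutation p was 0.1, the smallest that 3 against 3 can give. The log2 fold change stayed between 0.14 and 0.28 with single arrays left out, 0.14 without POMCDicerKO 1.

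The other Rian probe sets did not separate the groups. At 1440001_at the log2 fold change was also 0.22, with 9.85, 9.93 and 9.56 in POMCDicerKO against 9.88, 9.38 and 9.43 in controls. At 1452899_at, the highest in mean, it was 0.013, with 11.46, 10.84 and 11.26 in POMCDicerKO against 11.22, 11.21 and 11.08 in controls. Here the spread lay in POMCDicerKO, where arrays 1 and 2 were the highest and the lowest of the 6. At 1428055_at it was -0.007 (SE 0.26), with 7.64, 7.38 and 6.81 in POMCDicerKO against 7.71, 6.82 and 7.32 in controls. Both groups spanned most of the range there, and the interval of -0.62 to 0.60 was the widest among the 19. The 4 probe sets thus disagreed in size, and for the last 2 the sign turned with 3 of the 6 arrays left out in turn.

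Mirg, the noncoding RNA whose span holds miR-154, miR-377, miR-409 and miR-410, gave differences above 0 at both of its probe sets. At 1457030_at the POMCDicerKO arrays read 8.95, 8.71 and 8.77, against 8.84, 8.77 and 8.64 in controls. The groups overlapped, and the log2 fold change was 0.058 (SE 0.089; 95% interval -0.15 to 0.265). At 1440097_at they read 8.28, 8.32 and 8.06, against 8.44, 7.71 and 7.97, so that control 1 was the highest array and control 2 the lowest. The log2 fold change was 0.175 (SE 0.175), and was 0.011 without control 2 and 0.38 without control 1. The exact permutation p values were 0.7 and 0.6 (two-sided, n = 3 each).

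Dlk1, a transmembrane protein of the epidermal growth factor repeat family that acts on Notch signalling and adipocyte differentiation, was the only measured paternal gene. At 1442724_at the POMCDicerKO arrays read 10.58, 10.72 and 10.70, against 10.61, 10.87 and 10.58 in controls. The log2 fold change was -0.023 (SE 0.093; 95% interval -0.24 to 0.19), or between 1.18-fold lower and 1.14-fold higher. At 1449939_s_at they read 8.09, 8.37 and 8.24, against 8.24, 8.35 and 7.91, a log2 fold change of 0.069 (SE 0.13). The probe sets differed in sign, and control 3 was the lowest array in both. The exact permutation p values were 0.9 and 0.7 (two-sided, n = 3 each). Without control 2 the first turned to 0.069, and without control 3 the second turned to -0.061.

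Rtl1, derived from a retrotransposon and needed in the placenta, and Dio3, the deiodinase that inactivates thyroid hormone, had no listed probe set. Other noncoding transcripts of the interval did. Dio3os, transcribed beside Dio3, read 5.06, 5.19 and 5.26 in POMCDicerKO against 5.30, 5.25 and 5.14 in controls at 1435121_at, a log2 fold change of -0.062 (SE 0.079). The transcript 3110009F21Rik read 3.77 to 3.90 in POMCDicerKO and 3.78 to 3.82 in controls. Both lay below the array medians of 6.02 to 6.05. Probe set 1453446_at is annotated with 2 symbols of the interval, Mir127 and the noncoding RNA 6430411K18Rik, and was not among the 19. It read 8.33, 8.06 and 7.96 in POMCDicerKO against 8.12, 8.31 and 8.23 in controls. Its log2 fold change was -0.10 (SE 0.11). Among the controls it was lowest in control 1 and highest in control 2, the reverse of most Meg3 probe sets. It is not part of the counts and correlations of the locus given here.

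The probe sets of Meg3, Rian and Mirg mostly varied together from array to array. Over the 6 arrays, Pearson r was above 0 for all 55 pairs of Meg3 probe sets, with a median of 0.735. Within Rian it was above 0 for 5 of 6 pairs (median 0.489), and the 2 Mirg probe sets gave 0.413. It was above 0 for all 44 pairs of a Meg3 with a Rian probe set (median 0.529). For Meg3 with Mirg it was above 0 in all 22 pairs (median 0.600), and for Rian with Mirg in 7 of 8 (median 0.598). The closest pair from different genes was Meg3 1452906_at with Mirg 1440097_at (r = 0.949). Rian 1440001_at and Mirg 1440097_at followed at r = 0.939. These values describe 6 arrays that every probe set shares, with their dissection and normalisation, and they carry no test. Rian 1452899_at, which was lowest in POMCDicerKO 2, had the smallest median r with the other 16 maternal probe sets, at 0.164.

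Dlk1 mostly ran opposite to Meg3 on these arrays. Its r was above 0 for 1 of 8 pairs with Rian (median -0.329) and for 2 of 4 with Mirg (median -0.075). Its r with Meg3 was above 0 for 2 of 22 pairs, with a median of -0.416, and 1442724_at was below 0 with all 11. Control 2 carried this pattern, since it held the highest Dlk1 value among the controls at both probe sets and the lowest Meg3 value of the 6 arrays at 7 of 11. Without control 2 the Dlk1 and Meg3 pairs were split, 11 above 0 and 11 below, with a median of 0.016. Probe sets of Meg3, Rian and Mirg still mostly went together without control 2. Pairs above 0 numbered 48 of 55 within Meg3 and 35 of 44 for Meg3 with Rian. They numbered 18 of 22 for Meg3 with Mirg and 8 of 8 for Rian with Mirg. Without any other single array the Dlk1 and Meg3 pairs above 0 numbered between 0 and 3.

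**Figure D3:**
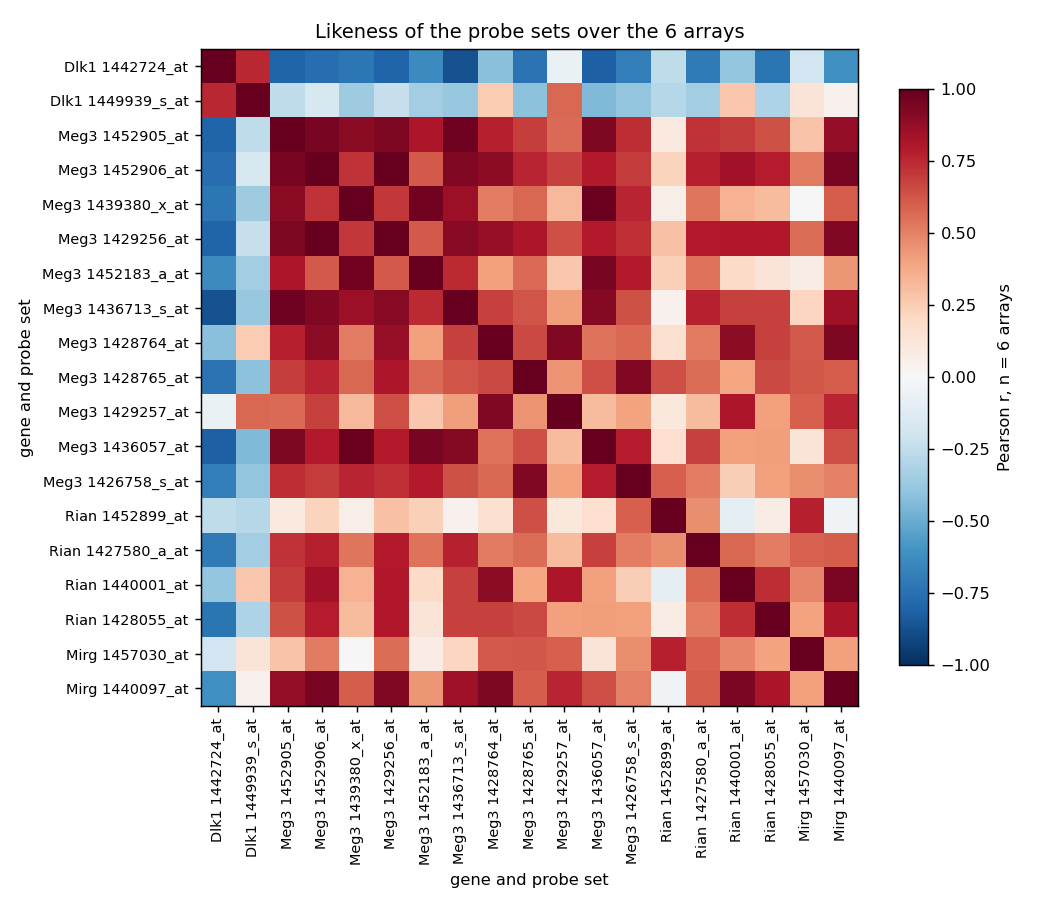
Colours give Pearson r over the 6 arrays between each pair of the 19 probe sets (red, above 0; blue, below 0). Meg3, Rian and Mirg form a mostly red block. Dlk1 is mostly blue against Meg3 and Rian, with r as low as -0.869 against Meg3, and is split against Mirg.

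Markers of cell types also differed between arrays, and they are set beside the locus here. Of 12 meningeal and fibroblast markers, all 12 were below control on average (median -0.855), and their summed log2 level was 72.9 to 80.2 in POMCDicerKO and 77.8 to 95.3 in controls. By array, their median stood at -0.556, -0.676 and -1.211 in POMCDicerKO, and at 0.329, 0.489 and -0.882 in controls, so that control 3 lay among the POMCDicerKO arrays. The order of the arrays was not that of Meg3, which was highest in control 1 and lowest in control 2. Of 11 myelin markers, all 11 were above control (median 0.42), with summed levels of 114 to 121 in POMCDicerKO and 111 to 114 in controls. By array, their median was highest in POMCDicerKO 1, at 0.805, and lowest in control 2, at -0.130. The means over the probe sets of Meg3, Rian and Mirg were also lowest in control 2, at -0.185, -0.187 and -0.154. Rian was also highest in POMCDicerKO 1, at 0.33 over its 4 probe sets. Of 9 POMC neuron genes, 8 were below control (median -0.19), with summed levels of 70.1 to 72.3 in POMCDicerKO and 71.9 to 74.5 in controls. Pomc itself read 9.35, 9.71 and 9.43 in POMCDicerKO against 9.94, 10.87 and 9.76 in controls at 1433800_a_at. At its other probe set, 1455858_x_at, the groups overlapped, with 8.82, 9.40 and 8.89 in POMCDicerKO against 9.63, 10.12 and 9.35 in controls. In all these lists 0 genes passed by limma over all probe sets, while 6 meningeal, 8 myelin and 1 POMC neuron gene had an unadjusted p under 0.05, against 2.41% of all 18193 genes. Their part in the values of the locus was not tested.

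Of 11 neuron markers, 7 were above and 4 below control, with a median of 0.015, no unadjusted p under 0.05, and summed levels of 128.0 to 129.0 in POMCDicerKO and 127.7 to 128.5 in controls. Their median by array lay between -0.029 and 0.076, and their part in the values of the locus was not tested. Markers of hypothalamic neurons that include cells known to make Dlk1, such as the orexin neurons, gave a median of -0.046 over 10 genes, 4 above and 6 below control. The 1 gene among them with an unadjusted p under 0.05 was Slc6a3, the dopamine transporter, at -0.365 (SE 0.084) with separate groups, and 0 passed by limma. Hcrt, the orexin precursor, read 10.72, 8.20 and 8.62 in POMCDicerKO against 8.60, 7.78 and 9.48 in controls, highest in POMCDicerKO 1, where Dlk1 1442724_at shared the lowest level with control 3. Of 9 pituitary markers, 2 were above and 7 below control, with a median of -0.041. There 3 of the 9 had an unadjusted p under 0.05, against 2.41% of all genes, and 0 passed by limma. Those 3 differed in direction. Cga, the shared subunit of glycoprotein hormones, read 8.67, 5.08 and 6.27 in POMCDicerKO against 9.46, 9.87 and 7.80 in controls (log2). Gh, growth hormone, read 8.92, 6.04 and 8.34 in POMCDicerKO against 6.24, 5.89 and 6.24 in controls. Prl, prolactin, was at 0.31 (SE 0.12). Blood (median -0.15 over 5), endothelial (0.088 over 6), astrocyte and tanycyte (-0.074 over 9), microglial (0.105 over 9) and choroid plexus markers (-0.23 over 6) had 1, 0, 1, 0 and 2 genes with an unadjusted p under 0.05, against the same 2.41% of all genes, and 0 passed.

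**Figure D4:**
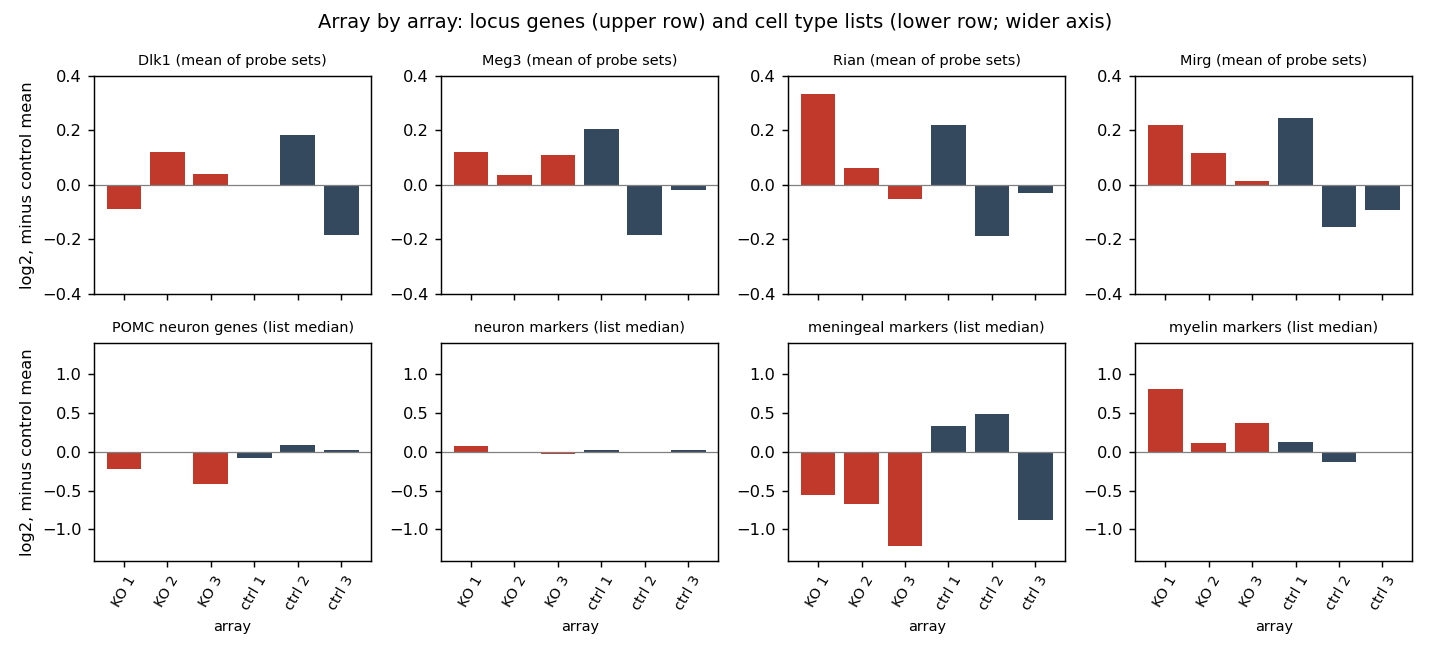
Bars show each array as log2 minus the control mean, POMCDicerKO (KO, red) left of control (ctrl, dark). The upper row gives the mean over the probe sets of Dlk1, Meg3, Rian and Mirg, with Meg3 at 0.203 in control 1 and -0.185 in control 2, and the lower row gives list medians on a wider axis.

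The locus lies on the same chromosome as Dicer1, the gene that the knockout targets. In the gene order of the RefSeq table, 88 genes lie between Dicer1 and Dlk1, of which 35 had a probe set. Of these 35, 20 were above and 15 below control, with a median of 0.006 and values between -0.19 and 0.16. By limma 0 passed and 0 had an unadjusted p under 0.05. Dicer1 itself read 9.18, 9.19 and 9.33 in POMCDicerKO against 9.22, 9.18 and 9.24 in controls at 1460571_at, a log2 fold change of 0.018 (SE 0.068). At 1427941_at it read 7.21, 7.21 and 7.45 in POMCDicerKO against 7.06, 7.27 and 7.27 in controls, a log2 fold change of 0.090 (SE 0.096). Where the deletion lies relative to these probe sets was not stated, so the values do not check the labels. In the flank on the Dlk1 side, 12 measured genes had a median of 0.006. Slc25a47, of a mitochondrial carrier family, was at 0.16 and Yy1, a zinc finger regulator, at -0.044. This flank shares genes with the 35, both of these among them, and is not a separate result. In the flank beyond Dio3, 20 measured genes had a median of -0.015, with Zfp839 at -0.18 and Wdr20 at 0.13. In both flanks 0 passed and 0 had an unadjusted p under 0.05, and the groups did not overlap at 0 of 12 and 3 of 20, against 6.44% of all genes.

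**Figure D5:**
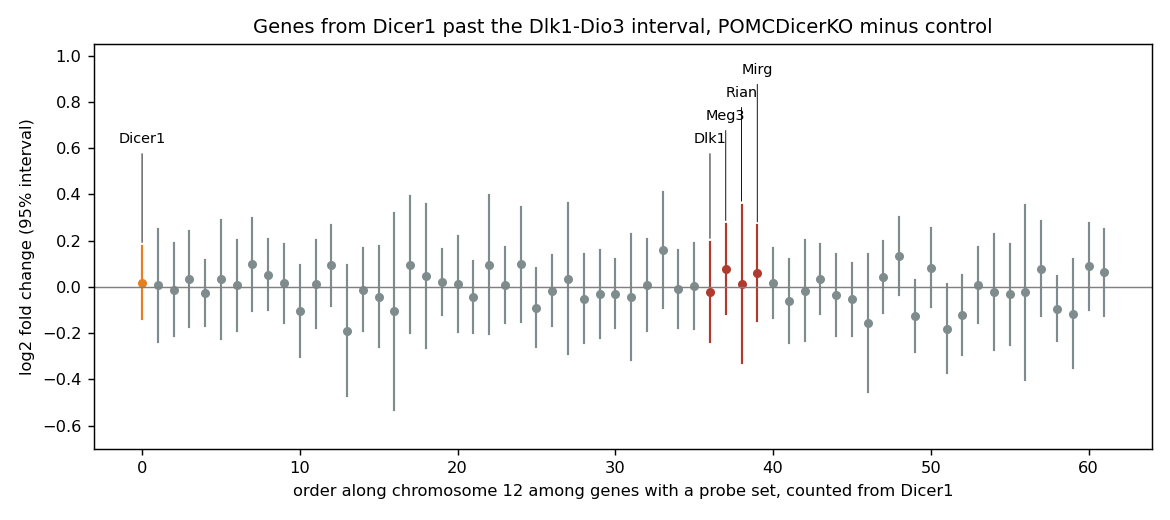
Points are log2 fold changes, POMCDicerKO minus control, with 95% intervals, for the 62 genes with a probe set from Dicer1 (orange) through the locus (red) and 20 genes beyond Dio3os, in gene order. Each gene is shown by its highest-mean probe set, and these values lie between -0.19 and 0.16. Other probe sets of the locus, not drawn, lie higher, at 0.22 (Rian 1427580_a_at and 1440001_at), 0.19 (Meg3 1428764_at) and 0.175 (Mirg 1440097_at).

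The machinery that makes and uses microRNAs showed no called difference beside its hosts. Of 17 genes, 8 were above and 9 below control, with a median of -0.003, and 0 passed or had an unadjusted p under 0.05. The Argonaute gene Ago2 was at -0.11, the Dicer partner Tarbp2 at -0.10, the precursor exporter Xpo5 at -0.088 and Tnrc6b of the silencing complex at 0.083. Of 13 other microRNA host genes on the array, 7 were above and 6 below, with a median of 0.016. Mir99ahg, host of the miR-99a and let-7c cluster, had the smallest p there, at -0.20 with separate groups, and 0 passed. Genes predicted or studied as targets of microRNAs of the locus were spread to both sides, 8 above and 8 below of 16, with a median of -0.005. Limk1 was at -0.018 (SE 0.18), and Pum2, another studied target of miR-134, at 0.008 (SE 0.060). Lrp6, a Wnt co-receptor, had the smallest p of the list, with 8.34, 8.53 and 8.11 in POMCDicerKO against 7.89, 8.15 and 7.92 in controls, a log2 fold change of 0.34 with overlapping groups and an adjusted p = 1 by limma.

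Genes that keep or read imprints gave small values as well. Of 20, among them Zfp57 and Trim28, which hold the imprint of the locus during early development, 9 were above and 11 below, with a median of -0.007. The DNA methyltransferase Dnmt3a was at 0.14 (SE 0.074), and 0 of the list had an unadjusted p under 0.05. Of 29 imprinted genes elsewhere in the genome, 12 were above and 17 below, with a median of -0.016, beside -0.010 for all genes. There 2 had an unadjusted p under 0.05, against 2.41% of all genes, and 0 passed. Igf2, the growth factor, read 9.02, 8.86 and 8.62 in POMCDicerKO against 9.68, 9.82 and 8.80 in controls, a log2 fold change of -0.60 (SE 0.25). Its order of arrays followed the meningeal markers, with control 3 beside POMCDicerKO. The calcitonin receptor Calcr read 9.66, 9.77 and 9.63 in POMCDicerKO against 9.96, 9.99 and 9.79 in controls, at -0.23 (SE 0.079). Its groups did not overlap, unlike those of the highest-mean probe sets of Dlk1, Meg3, Rian and Mirg.

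The pathways in which the protein products act were measured through other genes. Of 21 Notch receptors, ligands and targets, 8 were above and 13 below, with a median of -0.049. Notch1 was at -0.15, and Hes5, a target repressor, at -0.24 (SE 0.16), and 0 had an unadjusted p under 0.05. Of 16 genes of thyroid hormone handling, 9 were above and 7 below, with a median of 0.022. Dio2, the deiodinase that activates the hormone, read 7.74, 7.99 and 6.93 in POMCDicerKO against 7.95, 7.79 and 7.67 in controls. Nrgn, a calmodulin-binding neuronal protein, was the only member of that list with an unadjusted p under 0.05, at -0.22 (SE 0.065) and separate groups (adjusted p = 1 by limma). Crym, a thyroid hormone-binding protein, was at -0.47 (SE 0.26). Of 9 genes related to Rtl1 by their retrotransposon origin, 4 were above and 5 below, with a median of -0.006, and Rtl6 was at -0.18. In these lists 0 genes passed.

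Genes with the closest profile to each measured gene of the locus over the 6 arrays were found by Pearson r. The search covered 11741 other genes with a mean of at least 6. The values describe 6 shared arrays and carry no test. Meg3 1452905_at went with Ndufb11 of respiratory complex I (r = 0.997), Cpeb3, which binds polyadenylation elements (0.995), and the globin Cygb (0.994), and ran opposite to Mrpl10 and Sf3b3 (-0.994 each). Rian 1452899_at went with Nipal3 (0.989), Chd6 (0.986) and Sox8 (0.972) and opposite to 4933427D14Rik (-0.994) and Fam189a2 (-0.988). Mirg 1457030_at went with Ccne1 (0.991), Fam20b (0.989) and Tfeb (0.987) and opposite to Tmem158 (-0.987) and Sipa1l1 (-0.983). Dlk1 1442724_at went with Pabpc1 (0.994), Ptpn14 (0.993) and Fadd (0.993) and opposite to Cpe (-0.994) and Lmna (-0.993). No gene was named for more than 1 gene of the locus.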

How the data were processed

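RNA of 6 arcuate samples was measured on 6 arrays. The authors deposited log2 values for each probe set on each array. Per the submitters' processing notes these came from RMA and affy (versions not given in the sources used). RMA makes the arrays' distributions alike, so a shift shared by most transcripts is removed before deposit. Values were used as deposited, 64 AFFX control probe sets were left out, and 0 sample columns were unused. Array medians were 6.02 to 6.05, r across probe sets was 0.994 to 0.997 between arrays, and no 2 arrays were identical. The probe gene table gave 1 symbol to 34945 probe sets, several to 932 and did not list 9160. Of the single symbols, 34741 were found by Entrez identifier in the RefSeq table (GRCm38.p6), which gave names and gene order only, since the value table names no build. Sequences and positions of microRNAs are RefSeq's.

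Groups were compared with limma 3.58.1 (lmFit and eBayes) in R 4.3.3, adjusted over 45037 probe sets with a threshold of 0.05. Differences are POMCDicerKO minus control. Single values were compared by two-sided exact permutation tests, whose smallest p is 0.1 with 3 against 3. In gene lists the highest-mean probe set stood for each gene. All probe sets of the locus are named, and of each of the 23 lists up to 4 genes with the smallest p, with some others for their role, chosen after their values were seen. The members and lists were chosen with earlier results of these data known. The fit was tested on simulated data. The labels give no batch.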

Additional observations from a re-analysis of the deposited data

How the results depend on the processing

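No probe set of the locus passed under any alternative run (smallest adjusted p = 1). The replicate block gave 0 calls, as did the unblocked fit. The deviations of same-numbered arrays correlated at 0.128, 0.079 and 0.120, and each POMCDicerKO array correlated best with its own number, a hint from the data and not from the design. Over all probe sets, 1 passed with a trended, robust prior, 1 without controls 1 and 2, and 0 to 2 with 1 array left out. The 2 appeared without control 3 (Ogn and Slc6a20a, both meningeal markers), and over the gene lists the count was likewise 0 to 2. The median of the 4 measured genes was 0.036, and -0.015 to 0.097 with 1 array left out. The count above control was 12 to 18 with 1 array left out, and 17 without controls 1 and 2, an alternative chosen after seeing the data.

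Signs were not stable for 12 of the 19 probe sets when 1 array was left out, and 7 kept theirs. The ranges were -0.077 to 0.069 (Dlk1 1442724_at), -0.061 to 0.162 (Dlk1 1449939_s_at), -0.0026 to 0.141 (Meg3 1452905_at), -0.026 to 0.117 (Meg3 1439380_x_at), -0.0035 to 0.145 (Meg3 1452183_a_at), -0.093 to 0.060 (Meg3 1428765_at), -0.0078 to 0.283 (Meg3 1429257_at), -0.022 to 0.238 (Meg3 1436057_at), -0.075 to 0.069 (Meg3 1426758_s_at), -0.124 to 0.185 (Rian 1452899_at), -0.239 to 0.226 (Rian 1428055_at) and -0.012 to 0.108 (Mirg 1457030_at). With array weights the sign turned at Rian 1452899_at (-0.013) and Rian 1428055_at (0.080). Without controls 1 and 2 it turned at Dlk1 1442724_at (0.086) and at Meg3 1439380_x_at (-0.0029), 1428765_at (0.00077) and 1426758_s_at (0.0016). The cause was not tested. The number of arrays limits all of these values.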
